A study of Rattus norvegicus and Mus musculus with 34 samples.

Results

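Keratins, the intermediate filament proteins of epithelial cells, were followed through the healing of a periodontal bone defect in the rat. The genes were all 48 entries whose symbol is Krt, a number and at most a letter suffix, out of 20022 genes in the table. By known site of expression they were divided into 3 basal, 3 activated, 11 differentiated, 6 simple, 22 hair and 3 other keratins. Healing tissue was taken from within a defect on the buccal side of the mandible, next to the molars, of wild-type male Sprague-Dawley rats that were 6 to 8 weeks old. In the sensory nerve+ group the defect was the only treatment named in the labels, with 3 rats at day 3 and 4 rats each at days 7 and 14. In the sensory nerve- group a segment of the inferior alveolar nerve, the sensory nerve of the lower jaw, was also removed in the same operation, with 4 rats at each day. All 23 rats were given penicillin daily after surgery, and whether the sensory nerve+ rats had a sham operation on the nerve was not given in the sources used here. The labels describe the tissue as mixed cells, so that fewer epithelial cells and less keratin RNA per epithelial cell cannot be told apart.

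A keratin filament is built from pairs of a type I and a type II keratin, and which pair a cell makes marks its kind and state. Krt5 and Krt14 form the filaments of the dividing basal layer of stratified epithelia, including gingiva and the epithelium that forms teeth. Krt6a, Krt16 and Krt17 are switched on in wound-edge and hyperproliferative epithelium. Krt1 and Krt10 accompany cornification, Krt4 and Krt13 mark the suprabasal layers of lining mucosa, Krt8, Krt18, Krt19 and Krt7 are keratins of simple and ductal epithelium, and hair keratins belong to the hair shaft and its sheaths. Keratin filaments end on desmosomes between cells and on hemidesmosomes at the basement membrane.

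Promoter sequences are shown for 3 keratins of different behaviour, Krt5 as a basal keratin that fell over healing, Krt75 as the hair keratin that moved the other way at day 7, and Krt10 as a differentiated keratin measured in every rat. Each is the 250 bases before the RefSeq start in GRCr8, on the minus strand, written 5′ to 3′, for Krt5 at chr7:134730570-134730819, for Krt75 at chr7:134576075-134576324 and for Krt10 at chr10:84839161-84839410. Capitals mark the letters ATAAA on the coding strand, GGGCGG (a GC box, which reads CCGCCC when it lies on the other strand) and CACGTG (an E-box).
Krt5: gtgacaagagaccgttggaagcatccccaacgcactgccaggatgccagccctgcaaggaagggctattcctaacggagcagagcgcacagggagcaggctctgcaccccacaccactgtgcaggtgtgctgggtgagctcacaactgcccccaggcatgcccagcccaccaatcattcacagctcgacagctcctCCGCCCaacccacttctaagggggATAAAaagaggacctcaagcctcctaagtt
Krt75: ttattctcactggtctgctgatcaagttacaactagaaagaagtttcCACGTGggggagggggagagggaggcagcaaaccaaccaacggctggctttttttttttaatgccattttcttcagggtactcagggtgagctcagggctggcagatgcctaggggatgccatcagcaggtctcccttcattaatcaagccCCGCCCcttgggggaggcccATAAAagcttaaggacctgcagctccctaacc
Krt10: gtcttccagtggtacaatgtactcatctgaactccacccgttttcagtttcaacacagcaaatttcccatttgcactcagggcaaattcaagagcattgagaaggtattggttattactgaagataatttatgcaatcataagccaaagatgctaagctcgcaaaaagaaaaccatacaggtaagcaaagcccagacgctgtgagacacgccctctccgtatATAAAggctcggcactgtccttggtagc
ATAAA began at -30 in Krt5, -32 in Krt75 and -28 in Krt10, counted from the start, and was present in 25.2% of 33469 rat promoter entries of this length. GGGCGG, searched on both strands, began at -54 in Krt5 and at -52 in Krt75 and was in 30.5% of all promoters. CACGTG, searched likewise, began at -203 in Krt75 and was in 5.59%. The AP-1 letters TGANTCA (6.34% of all promoters) and the AP-2 letters GCCNNNGGC (12.6%), searched on both strands, were in none of these 3 windows. Of the 48 keratins, 33 had an entry, and Krt14, Krt17, Krt6a and Krt7 were among those without. A match describes the letters and says nothing of binding.

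Library totals lay between 14854389 and 18742274 expected counts, and a floor of 3 counts corresponded to 0.128 to 0.331 CPM (counts scaled to a common library size by the trimmed mean of M-values, TMM). The haemoglobin gene Hba-a1 took 0.130 to 23.4% of a library. Levels are given as CPM, which depend on transcript length and are therefore compared between rats and not between genes. The differences were tested by edgeR's quasi-likelihood test on rounded expected counts, with a Benjamini-Hochberg adjusted p under 0.05 over all genes tested as the threshold. Sensory nerve- rats of day 7 were deposited in a table of their own, so a difference between tables cannot be told apart from transection or from day wherever these rats are compared.

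Few of the 48 keratins were measurable. Krt75, Krt10, Krt8 and Krt76 reached the floor in all 23 rats, and 9 keratins had a mean of at least 1 CPM. By contrast, 31 keratins never reached 20 counts in any rat, 16 were below the floor in every rat, 13 of these among the 22 hair keratins, and Krt39 was at 0 throughout. A total of 17 keratins had enough counts to be tested in at least 1 of 11 comparisons, 5 in all 11, and 31 in none. The tested keratins were all 3 basal, 2 of 3 activated, 5 of 11 differentiated, 3 of 6 simple, 1 of 22 hair and all 3 other keratins, and 6 of the 17 changed in at least 1 comparison. These 6 were Krt5, Krt14, Krt17, Krt6a, Krt7 and Krt75. Over all genes 0 to 23.5% changed in a single comparison, and the share that changed in at least 1 of the 11 was not computed. The keratins of oral lining mucosa were at the limit of detection. Krt13 had 1 count in each of 2 rats and 0 in the other 21, and Krt4 had at most 4 counts in any rat. Of 15 genes of the cornified envelope, 8 (Loricrin, Ivl, Flg, Sprr1a, Sprr3, Tgm3, Krtdap and Crnn) had at most 8 counts in any rat. The 15 summed to 89.1 to 411 CPM, most of it from Cstb, a protease inhibitor that many cell types make, with a mean of 165 CPM over the rats.

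Basal keratins dominated the keratin reads in some rats and were nearly absent from others. Krt5, the type II keratin of the basal layer, was at 0.523, 468 and 199 CPM at day 3 with the nerve and at 51.6, 131, 274 and 18.9 CPM without it. At day 7 it was at 0.098, 6.66, 206 and 0.254 CPM with the nerve and at 0.169, 0.0542, 3.86 and 0.386 CPM without it. At day 14 it was at 0, 0.450, 2.18 and 0.0573 CPM with the nerve and at 0.409, 0.395, 0 and 0 CPM without it. Every sensory nerve- rat of day 3 was thus above every sensory nerve- rat of the later days, whereas among sensory nerve+ rats the first of day 3 was as low as the late rats and the third of day 7 as high as day 3. At day 3 its partner Krt14 followed the same order of rats within each arm, at 0.262, 236 and 169 CPM with the nerve and at 31.7, 89.4, 169 and 9.96 CPM without it. By day 14 the highest Krt14 value was 2.24 CPM with the nerve and 0.451 CPM without it. The remaining basal keratin, Krt15, had a median of 0 counts and at most 15, too few to be tested between groups. Krt5, Krt14 and Krt17 together supplied 95.2% of all keratin CPM in the third sensory nerve+ rat of day 3 and 68.0 to 91.9% in the sensory nerve- rats of day 3, but 4.55% in the first sensory nerve+ rat of that day. The other 45 keratins summed to 13.2 to 58.4 CPM across the 23 rats.

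**Figure D1:**
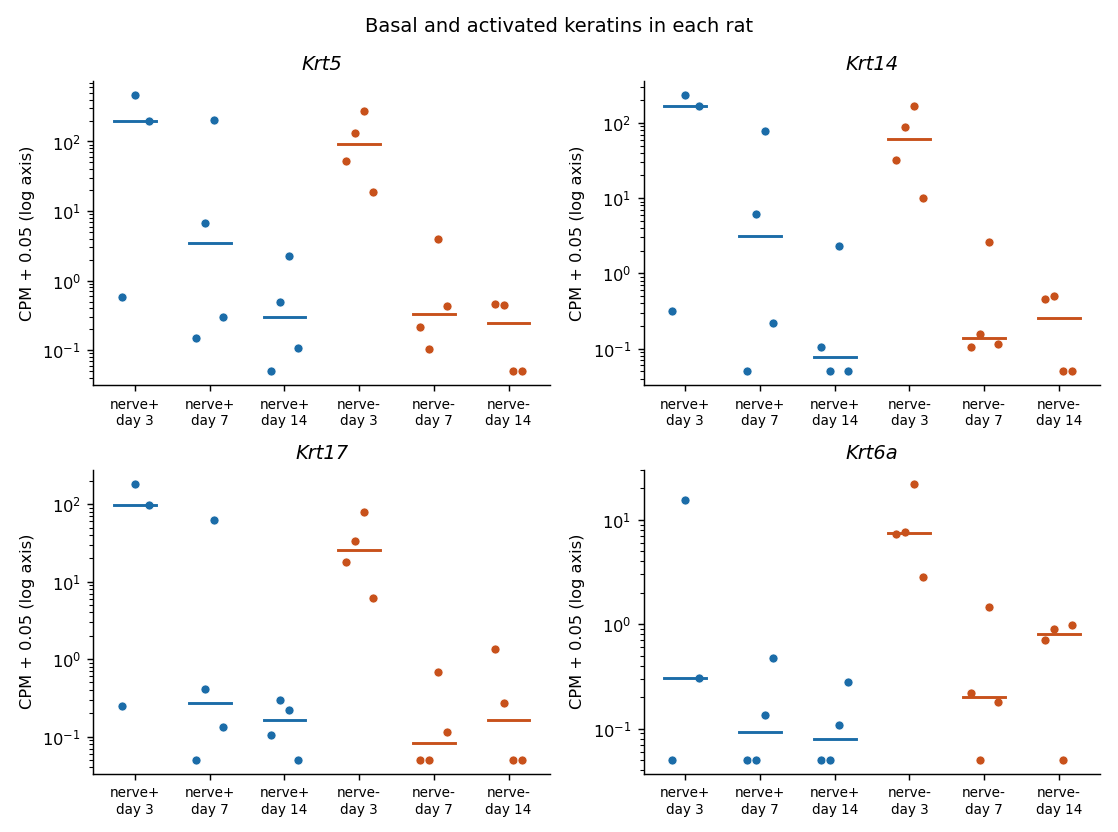
Krt5, Krt14, Krt17 and Krt6a in each of 23 rats (points), as CPM plus 0.05 on a log axis, by nerve status and day, with bars at group medians. All sensory nerve- rats of day 3 (18.9 to 274 CPM for Krt5) lie above those of days 7 and 14, while sensory nerve+ rats of day 3 range from 0.523 to 468 CPM.

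The 3 activated keratins differed from each other, with Krt17 following Krt5, Krt6a doing so in part and Krt16 barely present. Krt17, found at wound edges and in epithelial appendages, was at 0.196, 185 and 98.8 CPM at day 3 with the nerve and at 18.0, 33.2, 78.5 and 6.16 CPM without it. At day 7 it was at 0, 0.364, 62.1 and 0.0847 CPM with the nerve and at 0, 0, 0.635 and 0.0643 CPM without it. The high sensory nerve+ rat of day 7 is the same animal that was high for Krt5 and Krt14. Krt6a, an early keratin of wound-edge keratinocytes, was at 0, 15.5 and 0.257 CPM at day 3 with the nerve and at 7.19, 7.64, 22.2 and 2.78 CPM without it. Later it stayed at or below 0.424 CPM in all 8 sensory nerve+ rats, and it was at 0.169, 0, 1.42 and 0.129 CPM at day 7 and at 0.655, 0.845, 0 and 0.925 CPM at day 14 without the nerve. Krt16, the usual partner of Krt6a, had no more than 13 counts in a rat. Reads shared by keratins of similar sequence were divided between them by a counting program that is not given in the sources used here, which makes low values beside a high relative uncertain. The sensory nerve+ rat of day 7 with 4830 counts of Krt5 and 1816 of Krt14 had 2 counts each of Krt6a and Krt16.

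In sensory nerve- rats Krt5, Krt14, Krt17 and Krt6a fell between day 3 and day 7, and Krt75 rose. Of 10 keratins tested, 5 changed, 4 of them lower and 1 higher, where 10.5% of all 14576 genes changed, 6.77% lower and 3.68% higher. Krt5 fell, with a log2 change of -6.72 (SE 1.40, adjusted p = 0.0255), as did Krt14 with -6.69 (SE 1.43, adjusted p = 0.0275), Krt17 with -7.49 (SE 1.29, adjusted p = 0.0165) and Krt6a with -4.51 (SE 1.17, adjusted p = 0.0480). Krt75 rose by 2.30 (SE 0.556, adjusted p = 0.0399). None of these 5 overlapped between the days, nor did 21.7% of all genes. The median over the 10 tested keratins was a log2 change of 0.07, beside -0.01 over all genes. Each direction held when any 1 of the 8 rats was left out, but the calls were close to the threshold. No keratin passed without sensory nerve- replicate 1 of day 3 or without replicate 3 of day 7, 1 passed without replicate 2 of day 3 or replicate 4 of day 7, 3 passed without replicate 3 or without replicate 4 of day 3, and 4 passed without replicate 1 or replicate 2 of day 7. Krt17 was called in 6 of these 8 fits, Krt5 in 4, Krt14 in 3, Krt75 in 1 and Krt6a in 0, and Krt7, too low to be tested with all rats, in 2, with adjusted p between 0.0205 and 0.106 over the first 5 genes.

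The fall of Krt5, Krt14, Krt17 and Krt6a in sensory nerve- rats was still present at day 14. Against day 3, 4 of 12 tested keratins were lower and 0 higher, where 23.5% of all 14449 genes changed, 14.6% lower and 8.89% higher. The log2 change was -9.02 for Krt5 (SE 1.20, adjusted p = 0.00352), -8.25 for Krt14 (SE 1.22, adjusted p = 0.00438), -6.44 for Krt17 (SE 1.24, adjusted p = 0.0111) and -4.05 for Krt6a (SE 0.907, adjusted p = 0.0181). The days did not overlap for any of the 4, nor for 26.7% of all genes. All 4 calls held without any 1 of the 8 rats, and that of Krt6a was lost with all 23 rats in 1 fit (adjusted p = 0.0536). Krt7 was at 0.406, 2.33, 2.05 and 2.41 CPM at day 3 and at 0.655, 0.789, 0.442 and 0.463 CPM at day 14, a log2 change of -1.64 (SE 0.562, adjusted p = 0.0684) in which 1 rat of day 3 overlapped. Between days 7 and 14, 0 of 7 tested keratins passed, where 0.0138% of genes did, 0 of the 7 had an unadjusted p under 0.05 where 23.5% of genes had, and 0 were without overlap where 12.3% of genes were. DESeq2 called 0 of these keratins as well.

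In sensory nerve+ rats the basal keratins Krt5 and Krt14 were lower later, yet the test did not call them. From day 3 to day 14 the log2 change was -8.37 for Krt5 (SE 2.13, adjusted p = 0.0609) and -7.89 for Krt14 (SE 2.20, adjusted p = 0.0752). Of 11 keratins tested, 0 passed, where 5.78% of all 15065 genes did, although DESeq2 called 3 (Krt5, Krt14 and Krt7) and a single fit of all 23 rats called 7. At an unadjusted p under 0.05 there were 5 of the 11, beside 28.2% of genes, and 4 did not overlap (Krt75, Krt7, Krt76 and Krt2), beside 24.5% of genes. The first rat of day 3, at 0.523 CPM of Krt5, overlapped day 14. Without it 2 keratins passed, Krt17 and Krt42, and the adjusted p of Krt5 was 0.0505. Without sensory nerve+ replicate 2 of day 14, Krt7 alone passed, with a log2 change of -4.96 (adjusted p = 0.0335). At day 7 against day 3, Krt5 differed by -1.96 (SE 2.32, adjusted p = 0.667) and Krt14 by -2.59 (SE 2.19, adjusted p = 0.523). Without the third rat of day 7 these differences were -6.49 and -5.94, with adjusted p of 0.134 and 0.156. Between days 7 and 14, 0 of 7 tested keratins passed, where 0.0202% of genes did, 1 had an unadjusted p under 0.05 beside 9.42% of genes, and 0 were without overlap beside 5.78%. This 1 was Krt75, which went from 3.81 to 16.1 CPM at day 7 to 2.69 to 3.91 CPM at day 14, with a log2 change of -1.20 (SE 0.449, adjusted p = 0.501).

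**Figure D2:**
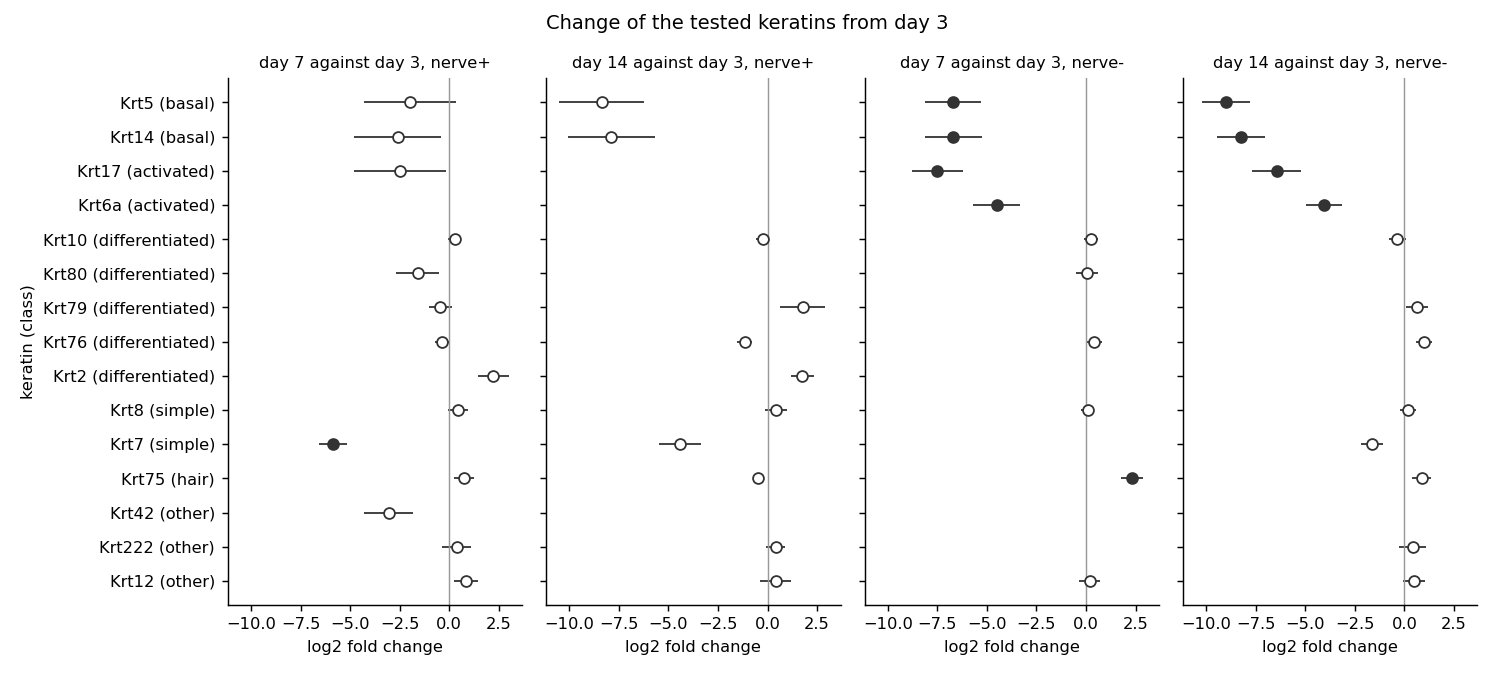
Log2 fold change (horizontal axis) with its standard error for each tested keratin, grouped by class, from day 3 to days 7 and 14 in sensory nerve+ and sensory nerve- rats. Filled points passed the adjusted p threshold of 0.05, and keratins without a point in a panel had too few counts there. The falls that passed belong to Krt5, Krt14, Krt17 and Krt6a in sensory nerve- rats and to Krt7 in sensory nerve+ rats at day 7, where Krt42 (-3.06) did not pass.

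The fall from day 3 was not shown to depend on the nerve. In the fit of all 23 rats, 0 of 17 keratins differed between the arms in their change to day 7 or in their change to day 14, and 0 of 15858 genes did (0% in each). At an unadjusted p under 0.05 the shares over all genes were 1.03% and 6.49%. For Krt5 the change to day 7 differed by -4.63, sensory nerve- minus sensory nerve+ (SE 2.55, adjusted p = 1), and the change to day 14 differed by -0.60 (SE 2.95, adjusted p = 0.976). These errors leave room for large differences in either direction. At an unadjusted p under 0.05 there was 1 keratin for day 7, Krt75, and there were 2 for day 14. Krt76 differed by 2.20 in its change to day 14 (SE 0.562, unadjusted p = 0.000901 by edgeR, adjusted p = 0.751) and Krt7 by 2.84 (SE 1.17, unadjusted p = 0.0258 by edgeR, adjusted p = 0.751).

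For transection itself 0 keratins passed the test at any day, and SEs such as that of Krt5 at day 3 leave room for large differences in either direction. At day 3, 0 of 15 tested keratins and 0% of 14695 genes passed, with 2 keratins (Krt75 and Krt76) and 122 genes (0.83%) at an unadjusted p under 0.05. Krt5 averaged 119 CPM ± 114 (SD, n = 4) without the nerve and 222 ± 234 (SD, n = 3) with it, a log2 difference of -0.93 (SE 1.54, adjusted p = 1). For Krt6a the difference was 0.87 (SE 1.63, adjusted p = 1), and it was 6.14 without the second sensory nerve+ rat. Of the 15 tested keratins, 12 were lower and 3 higher without the nerve, with a median log2 difference of -0.86, beside -0.01 over all genes. Krt75, Krt7 and Krt76 did not overlap between the arms at day 3, all 3 lower without the nerve, while 1.61% of all genes did not overlap. Krt75 was at 6.15, 4.24 and 4.21 CPM with the nerve and at 1.57, 2.66, 3.03 and 3.21 CPM without it (log2 difference -0.90, SE 0.329, unadjusted p = 0.0296 by edgeR, adjusted p = 1). Krt76, a keratin of masticatory mucosa, was at 1.05, 1.19 and 1.39 CPM with the nerve and at 0.348, 0.570, 0.419 and 0.696 CPM without it, from 6 to 27 counts (log2 difference -1.25, SE 0.365, unadjusted p = 0.0111 by edgeR, adjusted p = 1). At day 7, 0 of 8 tested keratins and 0% of genes passed (0 keratins and 215 genes, 1.46%, at an unadjusted p under 0.05), and 0 of the 8 did not overlap where 0.754% of genes did not. At day 14, 0 of 8 tested keratins and 0% of genes passed (1 keratin, Krt76, and 1362 genes, 9.32%, at an unadjusted p under 0.05), and 0 of the 8 did not overlap where 3.37% of genes did not. DESeq2 called 0 keratins at each day, with 0, 1 and 95 genes called in all.

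Simple keratins did not move as a class. Krt7, a keratin of ductal and glandular epithelium, was at 5.75, 5.14 and 2.57 CPM in sensory nerve+ rats of day 3, and at 0, 0.104, 0.0855 and 0.0847 CPM at day 7, where each library was below the floor. In the first rat of day 3, which had little Krt5, it was the highest of the 3. It was the only keratin of 14 tested that changed between days 3 and 7 with the nerve intact, where 6.67% of 15016 genes changed, 1.79% lower and 4.88% higher. It fell by 5.88 (SE 0.708, adjusted p = 0.00643), a size that depends on the prior count since day 7 is below the floor. Krt7 and Krt2 of the 14 did not overlap between these days, nor did 25.4% of all genes. The call held without any 1 of the 7 rats (adjusted p 0.00765 to 0.0336). In sensory nerve- rats it had at most 3 counts at day 7 and was not tested from day 3 to day 7 after the filter on low counts, but it was called there without the filter. Krt8, the first keratin of simple epithelia, behaved otherwise and lay between 0.850 and 4.48 CPM in all 23 rats, with log2 changes from day 3 of 0.44 (SE 0.513) and 0.42 (SE 0.567) with the nerve and 0.09 (SE 0.335) and 0.18 (SE 0.404) without it. Its partner Krt18 was at 0 to 1.43 CPM and below the floor in 11 rats. Krt19 had at most 12 counts, and Krt20 and Krt23 at most 3 and 2.

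**Figure D3:**
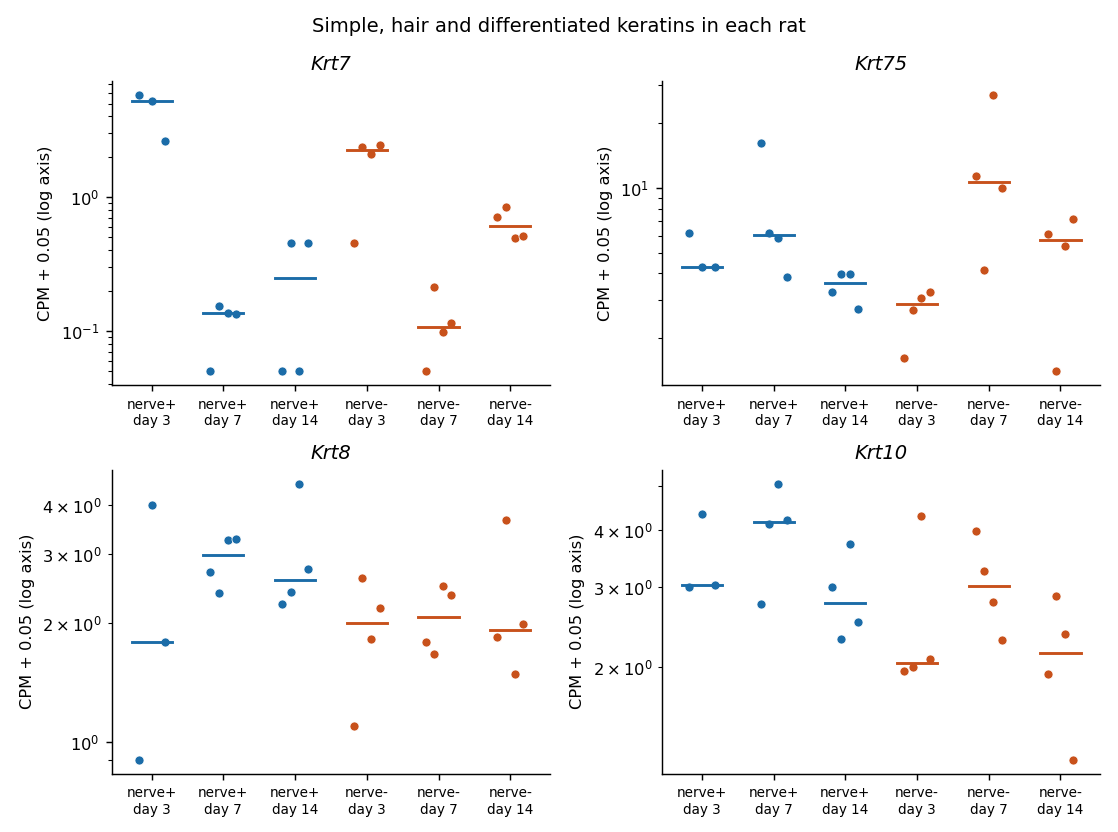
Krt7, Krt75, Krt8 and Krt10 in each of 23 rats (points), as CPM plus 0.05 on a log axis, by nerve status and day, with bars at group medians. Krt7 is highest in the sensory nerve+ rats of day 3 (2.57 to 5.75 CPM), Krt75 in 2 rats of day 7 (16.1 and 27.0 CPM), and Krt8 and Krt10 keep to a narrow band.

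Krt75, a keratin of the hair follicle companion layer that is also made in the enamel organ, was the only hair keratin with enough counts to be tested, and it did not follow Krt5. In sensory nerve- rats it was at 1.57, 2.66, 3.03 and 3.21 CPM at day 3, at 11.2, 4.12, 27.0 and 9.90 CPM at day 7 and at 6.05, 1.35, 5.30 and 7.12 CPM at day 14. Each rat of day 7 was above each rat of day 3, and the third of them was far above the rest. Without that rat the log2 change was 1.66 in place of 2.30 (adjusted p = 0.0785). With the nerve it was at 16.1, 6.14, 5.77 and 3.81 CPM at day 7, a change of 0.76 from day 3 (SE 0.518, adjusted p = 0.419), and the arms did not differ in this change by the test (1.6, SE 0.761, unadjusted p = 0.0486 by edgeR, adjusted p = 1). The 5 genes whose log2 CPM was most like Krt75 over the 23 rats were Lilra5 (Pearson r = 0.815), Epha10 (0.746), Lipa (0.732), Psca (0.724) and Hsd11b1 (0.705), where all points share the scaling of their library. The other hair keratins had means below the 1 CPM that this ranking required, so it could not have listed them. The hair keratin-associated protein genes Krtap3-1, Krtap8-1, Krtap11-1 and Krtap13-1 had at most 3 counts in a rat, and Krt71, Krt26 and Krt86, the next hair keratins by mean CPM, at most 36, 12 and 9.

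Differentiated keratins were low and changed in 0 of the 9 comparisons between groups. Krt10, the suprabasal keratin of cornifying epithelium, lay between 1.20 and 5.00 CPM in all 23 rats, with 13 to 117 counts and overlap of the groups in every comparison. Its usual partner Krt1 had 1 to 12 counts. Among sensory nerve+ rats Krt80 was highest where Krt5 was high, at 0.262, 7.38 and 3.03 CPM at day 3 and at 2.91 CPM in the third rat of day 7. Without the nerve Krt80 did not fall with Krt5 from day 3 to day 7. It was at 0.428 to 1.40 CPM at day 3 and 0.281 to 1.22 CPM at day 7, a log2 change of 0.045 (SE 0.560). At day 14 without the nerve Krt80 was at 0.0564 to 0.370 CPM, below every rat of day 3. These values rest on 1 to 4 counts, and the change to day 14 was not tested. Krt79, known from sebaceous and follicle duct cells, was between 0.0488 and 1.47 CPM in 22 rats and at 6.95 CPM (139 counts) in the second sensory nerve+ rat of day 14. Krt2 had at most 31 counts. With the nerve it was higher than at day 3 both at day 7 (log2 change 2.23, SE 0.776, adjusted p = 0.133) and at day 14 (1.75, SE 0.567, adjusted p = 0.101), and neither change passed. Among the other keratins, Krt42 was highest in rats rich in Krt5, with 231 counts in the second sensory nerve+ rat of day 3 and at most 62 elsewhere, whereas the corneal keratin Krt12 (2 to 23 counts) and the atypical Krt222 (1 to 28 counts) were spread over all groups.

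Some genes of the junctions on which keratin filaments end fell with Krt5 and Krt14 in sensory nerve- rats, and other tested ones did not pass. The 5 genes most like Krt5 over the 23 rats were Krt14 (Pearson r = 0.969), Krt17 (0.957), the desmosome gene Perp (0.947), the hemidesmosome collagen Col17a1 (0.921) and the desmosomal cadherin Dsc3 (0.901). Perp had 4, 1847 and 1068 counts at day 3 with the nerve, 69, 339, 1206 and 28 without it, and at most 4 in all rats of day 14. For Krt18 the 5 most alike were Wfdc2, Skida1, Nkd2, Lsr and Zfp182 (r = 0.686 to 0.707), and for Krt13, with its 2 counts in all, such a ranking has no meaning. In sensory nerve- rats 5 of 11 tested desmosome genes fell from day 3 to day 7 (Dsc3, Dsp, Perp, Pkp1 and Pkp3), with a median log2 change of -1.75 over the 11, where 6.77% of all genes were lower with a median of -0.01. By day 14 Dsc3, Dsp, Perp, Pkp1 and Pkp3 were again lower among 10 tested (median -2.49), where 14.6% of all genes were lower, and Jup, which vessel and heart muscle cells also use, was higher by 1.07 (SE 0.272, adjusted p = 0.0266). Of 9 hemidesmosome genes tested in these rats, 3 were lower at day 7 (median -1.40) and 4 at day 14 (median -0.35), beside the same shares of all genes, and 3 and 2 of the 9 had changes above 0. Those that fell included Lamb3, with a log2 change of -4.35 to day 7 (SE 0.945, adjusted p = 0.0289), and Col17a1, with -3.32 (SE 0.696, adjusted p = 0.0257), and both were again lower at day 14. In sensory nerve+ rats 4 of 9 desmosome genes (Dsp, Dsg2, Dsc2 and Pkp1) and 2 of 9 hemidesmosome genes (Lamb3 and Col17a1) were lower at day 14 than at day 3, where 5.78% of all genes changed in either direction, with medians of -2.86 and -0.22. At day 7, 1 of 11 desmosome genes (Dsg3) and 0 of 9 hemidesmosome genes were lower, where 1.79% of all genes were. Of 13 genes of epithelial identity, 9 were tested from day 3 to day 7 in sensory nerve- rats. Of these 9, 1 was lower, where 6.77% of all genes were. It was Cdh1, with a log2 change of -3.64 (SE 0.947, adjusted p = 0.0480). With the nerve 0 of 11 tested passed from day 3 to day 7. At day 14 against day 3, 0 of the 9 or 10 tested passed in either arm. Of 15 genes of the cornified envelope, 7 were tested at day 14 against day 3 with the nerve. Of these 7, 1 changed, where 5.78% of all genes did. It was Cnfn, with a log2 change of 6.95 (SE 1.01, adjusted p = 0.0272). In the other comparisons 0 of the 5 to 7 tested passed. Of the members of these lists, 0 passed the test for transection at any day.

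The rats rich in Krt5 were mostly rats rich in enamel matrix RNA. Amelx, which encodes amelogenin, was at 2.22, 2508 and 11594 CPM at day 3 with the nerve, at 0.638, 119, 5867 and 1.66 CPM without it, and at most 252 CPM at day 7 and 1.23 CPM at day 14. Summed over 10 genes of dental epithelium, CPM ranged from 5.23 to 23191 at day 3 with the nerve and from 8.30 to 11785 without it, and from 0.740 to 17.7 at day 14. In sensory nerve- rats 1 of 6 tested fell to day 7 (Odam) and 3 of 5 to day 14 (Odam, Ambn and Amelx), where 6.77% and 14.6% of all genes fell. In sensory nerve+ rats 0 of 9 and 2 of 4 did, where 1.79% of all genes fell to day 7 and 5.78% changed in either direction to day 14. Yet sensory nerve- replicates 1 and 4 of day 3 had 889 and 354 counts of Krt5 with less than 2 CPM of Amelx. The part that these genes have in the keratin changes was not tested. Salivary gland genes were at 0.0488 to 1.15 CPM in sum over 7 genes. Skeletal muscle changed in the opposite sense, with a summed CPM over 14 genes of 27.2 to 545 in the 7 rats of day 3 and of 3012 to 55565 in the 8 rats of day 7, and its part in the fall of keratins between these days was not tested either.

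**Figure D4:**
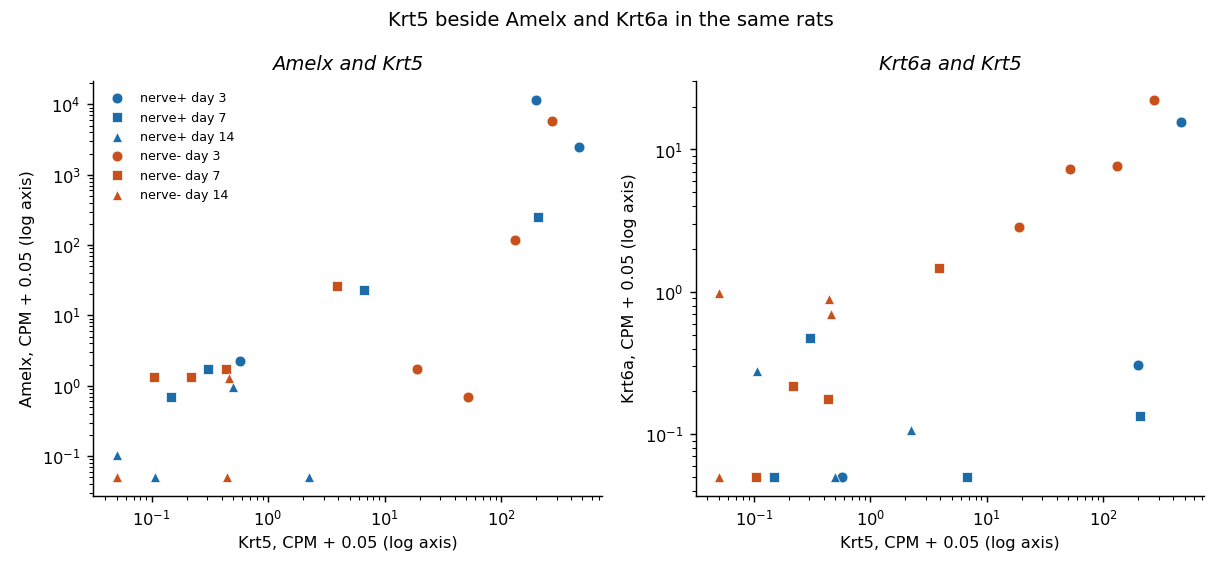
Krt5 (horizontal axis) against Amelx and Krt6a (vertical axes) in the same 23 rats, all as CPM plus 0.05 on log axes, coloured by nerve status with a symbol for each day. Amelx is high in most rats with high Krt5 except 2 sensory nerve- rats of day 3, and Krt6a is low in the third sensory nerve+ rats of days 3 and 7 although Krt5 is at 199 and 206 CPM.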

How the data were processed

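RNA of periodontal healing tissue from 23 rats was sequenced on the DNBSEQ platform. The authors aligned reads with HISAT to mRatBN7.2 (Bowtie2 is also named in the submitters' processing notes) and deposited an expected count per gene, 37.0% of which were whole within 0.005; the counting program was not given in the sources used here. Expected counts were rounded, filtered by filterByExpr, normalized by TMM and tested with the two-sided quasi-likelihood test of edgeR 4.0.16 in R 4.3.3. Each of 9 pairwise comparisons was fitted on its own groups and 2 interactions on all 23 rats, and SEs were derived from F. CPM were scaled by TMM over all rats, and log2 CPM used 0.5 added counts. Groups and replicate numbers came from the sample labels, and each sample was counted as 1 rat.

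Alternatives were DESeq2 1.42.0, RLE size factors, the library total, no filter, a stricter filter (CPM of at least 1 in 3 rats), a replicate block, all rats in 1 fit, and each rat left out. Members and gene lists were chosen with earlier results of these data known. Keratins were named when called anywhere or among the 4 highest of their class, and likeness was ranked over genes with a mean of at least 1 CPM. Sequences are from RefSeq tables of GRCr8. Tables were made with Python 3.11.15, pandas 2.3.3 and numpy 2.4.6, and figures with matplotlib 3.10.9. The macrophage samples were not used here. The result for 1 gene is not reported here.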

Additional observations from a re-analysis of the deposited data

Results flagged for a closer look

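A rat was marked when its distance to the nearest rat of its group, divided by the range of the group, was above Dixon's 95% critical value for 4 samples. This was so for 17 of the 94 sets of 4 rats examined for the named keratins, and each marked rat was the highest of its group. The chance rate of about 1 in 20 holds for normally distributed values. CPM near 0 are skewed, and the sets share rats and are not independent, so an excess over chance was not shown. The third sensory nerve+ rat of day 7 was highest for Krt5 (206 CPM), Krt14 (77.6 CPM), Krt17 (62.1 CPM) and Krt80 (2.91 CPM). The third sensory nerve- rat of day 7 was highest for Krt5 (3.86 CPM), Krt14 (2.59 CPM), Krt17 (0.635 CPM) and Krt6a (1.42 CPM). The third sensory nerve- rat of day 3 was highest for Krt15 (0.559 CPM), Krt16 (0.606 CPM) and Krt10 (4.24 CPM), and the second for Krt19 (0.427 CPM). At day 14, sensory nerve+ replicate 3 was highest for Krt14 (2.24 CPM) and Krt222 (1.03 CPM), and replicate 2 for Krt79 (6.95 CPM). Among sensory nerve- rats of day 14, replicate 1 was highest for Krt15 (0.982 CPM) and replicate 3 for Krt86 (0.994 CPM). The first sensory nerve+ rat of day 3, which was low for Krt5, Krt14 and Krt17, is in a group of 3, which was not examined.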

How the results depend on the processing

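The number of keratins called stayed within 1.5 times of the reported number in 69 of 75 alternatives that kept all rats. A count of 0 in both was taken as unchanged, and most of the 75 concern comparisons in which 0 keratins were called. The replicate block gave 0 in place of 1 keratin for day 7 against day 3 with the nerve, and 0 in place of 5 without it, where the library total gave 3. For day 14 against day 3 with the nerve, DESeq2 gave 3, no filter 1 and the fit of all rats 7 in place of 0. With 1 rat left out, the numbers were 0 to 2 for that comparison, 0 to 4 for day 7 against day 3 and 4 to 5 for day 14 against day 3 in sensory nerve- rats, 1 for day 7 against day 3 in sensory nerve+ rats, and 0 for the others. Correlations of deviations between same-numbered rats ran from -0.39 to 0.441, and in 0 comparisons was every pair over 0.1. Between the arms at day 7 they were 0.060 to 0.322, and 3 of 4 rats were most like their own number. Between days 7 and 14 with the nerve, 0 of 4 were. Whether same-numbered rats share more than a number cannot be told from these values. The block ended the call of Krt6a for day 14 against day 3 in sensory nerve- rats (adjusted p = 0.0795) and left 2 of 1524 genes called for day 7 against day 3 in sensory nerve- rats.

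Directions turned only in results that were not called. At day 3 the transection difference became 0.967 for Krt5, 0.794 for Krt14 and 0.193 for Krt17 under the replicate block, and for Krt5 it ranged from -1.78 to 0.28 with 1 rat left out, turning without sensory nerve+ replicate 2. For Krt75 at day 14 it was -0.0994 with the library total. With 1 rat left out, the interaction at day 7 ranged from -7.73 to 1.74 for Krt17 and from -4.15 to 2.66 for Krt6a (-1.03 without sensory nerve- replicate 3 of day 7). At day 14 it ranged from -1.76 to 1.27 for Krt5, from -0.99 to 4.19 for Krt14 and from -3.09 to 3.72 for Krt6a, and its other turned values were 0.223 for Krt5 and 0.269, 0.464 and 0.0253 for Krt14. Keratins below about 20 counts are limited by depth, and 3 or 4 rats a group with a spread of over 100-fold in Krt5 limit the rest.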

Other observations

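Krt6a varied widely relative to Krt5 among the 8 rats with at least 100 counts of Krt5, a pattern noticed after the values were seen and given without a test. Rounded counts of Krt6a were 3.32% and 0.129% of those of Krt5 in replicates 2 and 3 of sensory nerve+ day 3, and 0% and 0.0414% in replicates 2 and 3 of day 7. In sensory nerve- replicates 1 to 4 of day 3 they were 13.9%, 5.84%, 8.12% and 14.7%. Krt14 was between 37.6% and 90.6% of Krt5 in these 8 rats, and Krt17 between 25.4% and 49.7% in 7 of them and at 5.47%, from 7 counts, in replicate 2 of sensory nerve+ day 7. Amelx ran from 1.24% to 5837% of Krt5, with 1.24% and 8.76% in sensory nerve- replicates 1 and 4 of day 3. Odam, a gene of junctional epithelium and of maturing enamel organ, was at 82.3 and 3.39 CPM in sensory nerve+ replicates 2 and 3 of day 3 and at 3.77, 60.2, 88.1 and 2.14 CPM in the 4 rats without the nerve. At day 7 it was at 0 in all 4 sensory nerve- rats.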
